A study of Mus musculus with 6 samples.

Results

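The variable (V) gene segments of the T cell receptor alpha chain (Trav) and beta chain (Trbv) were followed in activated mouse spleen T cells labelled wild type or Drp1 KO. Segments were chosen by their summed raw counts: a row was included when its name began with Trav or Trbv and its counts over the 6 libraries came to 30 or more. The choice did not use the genotype, and the levels behind it are given as a description. The rule kept 82 of 163 V segment rows, 62 of 129 Trav and 20 of 34 Trbv rows, in a table of 45808 gene symbols. The included segments held 98.7% of all Trav counts and 99.9% of all Trbv counts. At the limit, Trav13d-1 and Trav13d-4 entered with 33 and 35 counts, and Trav9n-1 and Trav13n-3 stayed out with 25 and 21. In the beta locus the lowest segments inside were Trbv24 with 125 counts and Trbv30 with 146, and the highest outside were Trbv12-3 with 18 and Trbv22 with 17.

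The wild-type group (n = 3) and the Drp1 KO group (n = 3, genotype Drp1-/-) both came from C57BL/6 background mice aged 2 months. Both were spleen T cells stimulated in culture with antibodies to CD3 and CD28 together with IL-2, the growth factor of activated T cells. Drp1, the product of Dnm1l, is a GTPase of the dynamin family that splits mitochondria. How the knockout was made and in which cells is not given in the sources used here, and the labels do not tie replicates to separate mice or cultures. Every p-value here therefore covers the spread among these 6 libraries alone, which may be technical.

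Each T cell builds its receptor in the thymus by cutting and joining V and J segments in the alpha locus and V, D and J segments in the beta locus. The joined V segment is then transcribed with the constant gene, Trac for alpha and Trbc1 or Trbc2 for beta, so V segment counts in a mixed T cell culture reflect how many cells carry each segment and how much receptor RNA each cell holds. The delta chain genes lie inside the alpha locus, and Trav segments with "dv" in their names can be joined into either an alpha or a delta chain. In bulk RNA, fewer cells with a segment and less RNA per cell cannot be told apart.

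Total counts per library ran from 24738017 to 34730475, and 3 counts corresponded to 0.0840 to 0.128 CPM, the scaled count used throughout, with TMM factors applied. Dnm1l lay between 117 and 123 CPM in wild type and between 92.6 and 101 in KO, a log2 fold change of -0.32 ± 0.05 (standard error, SE) with an adjusted p of 0.000728 by edgeR's quasi-likelihood test with Benjamini-Hochberg adjustment. Its RNA was thus 19.7% lower and not absent in the libraries labelled KO, so the level of the target gene alone does not show a loss of Drp1. Which part of the gene was deleted is not given in the sources used here. KO below means the label. Among wild-type libraries, replicate 1 was unlike replicates 2 and 3, with a chi-square per gene of 12.2 and 13.6 against them, where the other pair gave 2.56. Xist, the X-inactivation RNA of female cells, ran from 0 to 0.101 CPM in wild type and from 417 to 472 in KO. Ddx3y, a Y-linked gene, ran from 106 to 153 CPM in wild type and from 69.7 to 77.2 in KO. The sex mix of the source mice thus differed between the groups and cannot be told apart from genotype in any result below.

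Many Trav segments have near-identical copies within the alpha locus. The stretches below are the last 90 coding bases of V segments, from GENCODE M21 transcripts on mm10, forward strand, 5′ to 3′. They are shown because a read from such a stretch can be given to one segment only where the copies differ. The first pair is Trav13-4-dv7 (chr14:53757832-53757921), which held 332 counts, and its copy Trav13d-4 (chr14:53073185-53073274), which held 35. Capitals mark the 4 bases that differ.
Trav13-4-dv7: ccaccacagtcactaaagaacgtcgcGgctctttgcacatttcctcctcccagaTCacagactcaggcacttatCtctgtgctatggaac
Trav13d-4: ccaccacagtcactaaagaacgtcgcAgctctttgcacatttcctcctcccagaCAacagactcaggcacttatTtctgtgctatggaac

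The next pair is Trav15-2-dv6-2 (chr14:53649905-53649994), which held 84 counts, and Trav15d-2-dv6d-2 (chr14:52957311-52957400), which held 0. No capitals are printed because 0 bases differ.
Trav15-2-dv6-2: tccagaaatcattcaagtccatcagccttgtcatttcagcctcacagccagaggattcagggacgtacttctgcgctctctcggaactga
Trav15d-2-dv6d-2: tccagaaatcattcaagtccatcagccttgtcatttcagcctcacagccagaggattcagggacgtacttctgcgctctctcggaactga

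The same stretch is shown for other segments the results turn on, where capitals mark the last in-frame cysteine codon. In a V segment this codon opens the third complementarity-determining region, the part of the receptor made by joining. They are Trav15-1-dv6-1 (chr14:53560158-53560247), Trav5-4 (chr14:53704425-53704514), Trbv26 (chr6:41227904-41227993) and Trbv20 (chr6:41188888-41188977), all on the forward strand of mm10.
Trav15-1-dv6-1: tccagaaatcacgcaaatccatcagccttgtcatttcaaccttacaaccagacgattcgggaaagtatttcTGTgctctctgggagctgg
Trav5-4: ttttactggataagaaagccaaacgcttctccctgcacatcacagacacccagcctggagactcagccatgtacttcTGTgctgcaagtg
Trbv26: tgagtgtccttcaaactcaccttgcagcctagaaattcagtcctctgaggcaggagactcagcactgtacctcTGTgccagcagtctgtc
Trbv20: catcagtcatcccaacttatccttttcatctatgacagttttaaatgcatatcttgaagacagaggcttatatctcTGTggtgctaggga

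Each V transcript was cut into all windows of 50 bases, a length chosen here because the read length is not given in the sources used, and windows found in no transcript of another gene were counted. Of 108 Trav rows annotated as functional, 39 were at 0 in every library, and 36 of these 39 had no window of their own. Included Trav segments had 10.99% to 100% unique windows (median 56.5%), 22 were under 50%, and 6 were fully unique. Included Trbv segments had 98.8% to 100% unique windows, and the 8 Trbv rows at 0 were all pseudogenes. Copies with a "d" after the family number held 8.58% of Trav counts over 40 rows, with 24 rows at 0. Copies with an "n" held 13.4% over 34 rows, with 20 at 0, and the 55 rows without either letter held 78.0%. A count on a single Trav row is therefore a count of reads given to that row and is uncertain as a measure of that copy. The included Trbv rows are largely free of shared sequence. Outside them, Trbv5, annotated as functional, held 7 counts with 22.6% unique windows and shared sequence with 5830405F06Rik. No row was named Trbv4. How the authors treated reads matching several copies is not given in the sources used here.

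**Figure D1:**
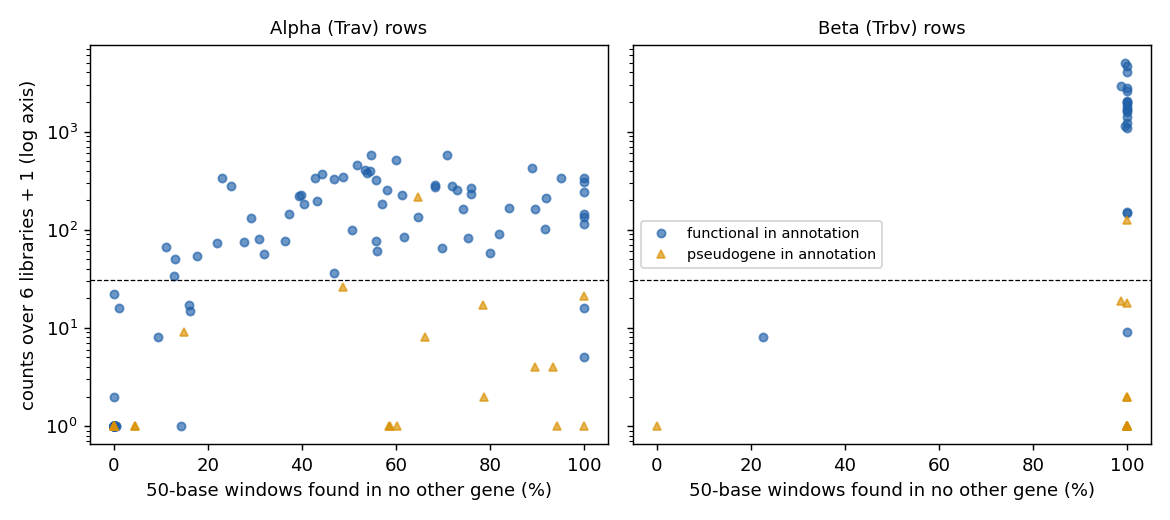
Counts over the 6 libraries plus 1 (log axis) of each Trav row (left) and Trbv row (right) against the percent of its 50-base windows found in no other gene. Circles are functional and triangles pseudogene rows, and the dashed line marks the 30-count limit. Most Trav rows at 0 sit at 0% unique, and the included Trbv rows sit at 98.8% to 100%.

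Beta segments were used unequally. Trbv13-2 (chromosome 6, 41121396 to 41121832), a segment carried by many natural killer T cells as well as by conventional T cells, was the most abundant per length, at 82.8 ± 5.10 CPM per kilobase of exon in wild type (SD, n = 3). Trbv3 followed at 56.5 ± 4.57 and Trbv1 at 50.9 ± 3.76 CPM per kilobase, and the ranges of this pair overlapped (53.1 to 61.7 and 47.3 to 54.8). Trbv12-2 at 41.3 ± 0.825 and Trbv15 at 39.7 ± 0.142 CPM per kilobase came next. Among the included beta segments the pseudogene Trbv24 was lowest at 1.97 CPM per kilobase, and the median was 25.3.

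As shares of all Trbv counts in a library, Trbv13-2 made up 12.6% ± 0.639 in wild type and 12.5% ± 0.544 in KO (SD, n = 3 each). Trbv3 made up 11.5% ± 0.604 and 11.6% ± 0.104. Trbv1, the segment farthest upstream in the beta locus, made up 9.54% ± 0.954 and 10.8% ± 0.406. The remaining most used segments were Trbv12-2 (7.14% ± 0.119 and 7.29% ± 0.423), Trbv15 (6.60% ± 0.204 and 6.23% ± 0.0707) and Trbv19 (6.36% ± 0.263 and 7.40% ± 0.527). None of these 6 passed the test of their CPM, with log2 fold changes of -0.10 ± 0.07 for Trbv13-2, -0.08 ± 0.07 for Trbv3, 0.09 ± 0.07 for Trbv1, -0.05 ± 0.07 for Trbv12-2, -0.17 ± 0.07 for Trbv15 and 0.14 ± 0.09 for Trbv19 (SE).

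In the comparison of KO with wild type, 2 of 20 Trbv segments fell, 0 rose and 18 did not pass, where 52.9% of all 14209 genes tested passed, 26.7% higher and 26.1% lower. The median log2 fold change of the 20 was -0.08, against 0.01 over all genes tested, and single values ran from -0.58 to 0.14 with a median SE of 0.09. For the count of 0 higher, edgeR gave 0 at an unadjusted p under 0.05 too, and DESeq2 and limma-voom also gave 0. Counts were 15 to 948 per segment and library. CPM did not overlap between the groups for 4 segments, Trbv12-1, Trbv15, Trbv20 and Trbv26, all lower in KO, where 63.3% of all genes tested did not overlap, 30.8% wholly lower and 32.5% wholly higher.

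Trbv26 (chromosome 6, 41227505 to 41227993) fell the most. In replicate order its CPM was 7.66, 7.05 and 6.82 for wild type and 4.56, 4.77 and 5.02 for KO. All KO libraries lay below all wild-type libraries, on raw counts of 180, 210 and 215 against 163, 148 and 168. On the log2 scale it fell by 0.58 ± 0.10 (SE), which is 33.2%, with an adjusted p of 0.000933 by edgeR's quasi-likelihood test with Benjamini-Hochberg adjustment. Its share of Trbv counts was 3.22% ± 0.105 in wild type and 2.28% ± 0.0781 in KO (SD, n = 3 each). With the Trbv total as the library size, so that the test asked about usage within the locus, its log2 fold change was -0.50 ± 0.11 with an adjusted p of 0.00231 by the same edgeR test. Trbv26 was the 1 of 20 Trbv segments that fell under that scaling, and 0 rose, where 51.2% of all genes passed.

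Trbv20 (chromosome 6, 41188273 to 41188977) was read at 9.84, 10.2 and 10.1 CPM in wild type and 7.58, 8.61 and 8.64 CPM in KO. The groups did not overlap, and KO replicate 1 was the lowest. On the log2 scale it fell by 0.28 ± 0.09 (SE), with an adjusted p of 0.0213 by edgeR's quasi-likelihood test with Benjamini-Hochberg adjustment. The call was lost without wild-type replicate 2 (adjusted p 0.0605, edgeR), without KO replicate 1 (0.0753), with no TMM factor (0.0863) and as a share of the locus (-0.20, adjusted p 0.109).

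**Figure D2:**
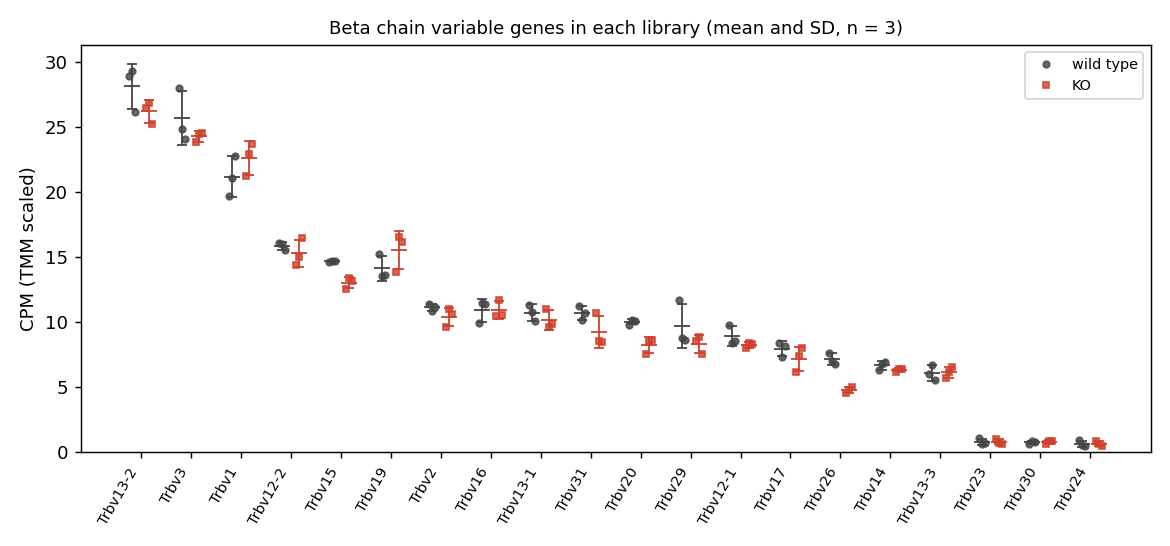
CPM of the 20 included Trbv segments on a linear axis, with 1 point per library (circles for wild type, squares for KO) and bars for the mean and SD of 3 libraries. Trbv26 and Trbv20 have all KO points below all wild-type points, and most other segments overlap.

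Over all Trbv rows present, which lack Trbv4, counts summed to 230, 221 and 218 CPM in wild type and 204, 214 and 212 CPM in KO. The totals, shares and segment numbers of the beta locus cover these rows only. The groups did not overlap, at means of 223 ± 6.21 and 210 ± 4.97 CPM (SD, n = 3 each), a log2 ratio of -0.09. With library totals alone as the scaling the log2 ratio was -0.0095. Per 100 counts of Trbc1 plus Trbc2, the constant genes, Trbv gave 37.4 ± 1.17 in wild type and 37.0 ± 1.08 in KO. Trbc1 and Trbc2 did not pass, at log2 fold changes of -0.07 ± 0.05 for each (SE). The 5 most used segments of each library held 47.5% ± 0.484 of Trbv counts in wild type and 49.6% ± 0.607 in KO. These were not the same segments in every library. The effective number of segments is the exponential of the Shannon entropy of the shares. It was 16.14, 15.94 and 16.06 in wild type and 15.86, 15.72 and 15.72 in KO. The groups did not overlap in either measure, with use slightly more concentrated in KO. The nearest effective numbers, 15.94 and 15.86, lay close together, and neither measure was tested.

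Alpha segments were read at far lower counts, 2 to 114 per segment and library, and no segment dominated. Levels and shares here are of reads given to each row. Segments differed in unique windows, as with 54.6% for Trav13-1 and 88.9% for Trav7-5, so their order is uncertain as an order of use. Per length, Trav13-1 was highest in wild type at 9.90 ± 0.926 CPM per kilobase (SD, n = 3), followed by Trav7-5 at 7.77 ± 1.46 and Trav12-2 at 7.77 ± 0.348, whose ranges overlapped (6.12 to 8.86 and 7.40 to 8.10). The lowest included segment was at 0.491 and the median at 2.90 CPM per kilobase. As shares of Trav counts, Trav12-2 made up 4.199% ± 0.135 in wild type and 4.29% ± 0.129 in KO. Trav13-1 made up 4.16% ± 0.501 and 4.32% ± 0.268, Trav3-3 3.34% ± 0.698 and 4.22% ± 0.791, and Trav16 2.97% ± 0.438 and 3.79% ± 0.0756. Trav7-5 (3.32% ± 0.591 and 2.90% ± 0.232) and Trav9-2 (3.25% ± 0.517 and 2.81% ± 0.260) were the other members of the top 6. All 6 failed to pass in CPM, with log2 fold changes from -0.41 (Trav9-2) to 0.14 (Trav16). Trav7-5 and Trav9-2 were called lower without wild-type replicate 3, at -0.56 (adjusted p 0.0207) and -0.55 (adjusted p 0.0233) by edgeR.

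Of the 62 Trav segments, 57 passed the filter on low counts, and Trav13d-1, Trav13d-4, Trav13n-1, Trav3-4 and Trav6-3 did not. Among these 57, 1 rose, 6 fell and 50 did not pass, so 12.3% were called where 52.9% of all genes were. The median log2 fold change was -0.24 (range -1.19 to 0.76), 47 were below 0 and 10 above, and the median SE was 0.22. Under every other whole-library scaling tried, 45 to 48 of the 57 were below 0. CPM did not overlap between the groups for 15 of the 57, 3 wholly higher and 12 wholly lower, against 32.5% and 30.8% of all genes tested (63.3% in all). Most Trav segments thus had values below 0 without passing the test.

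**Figure D3:**
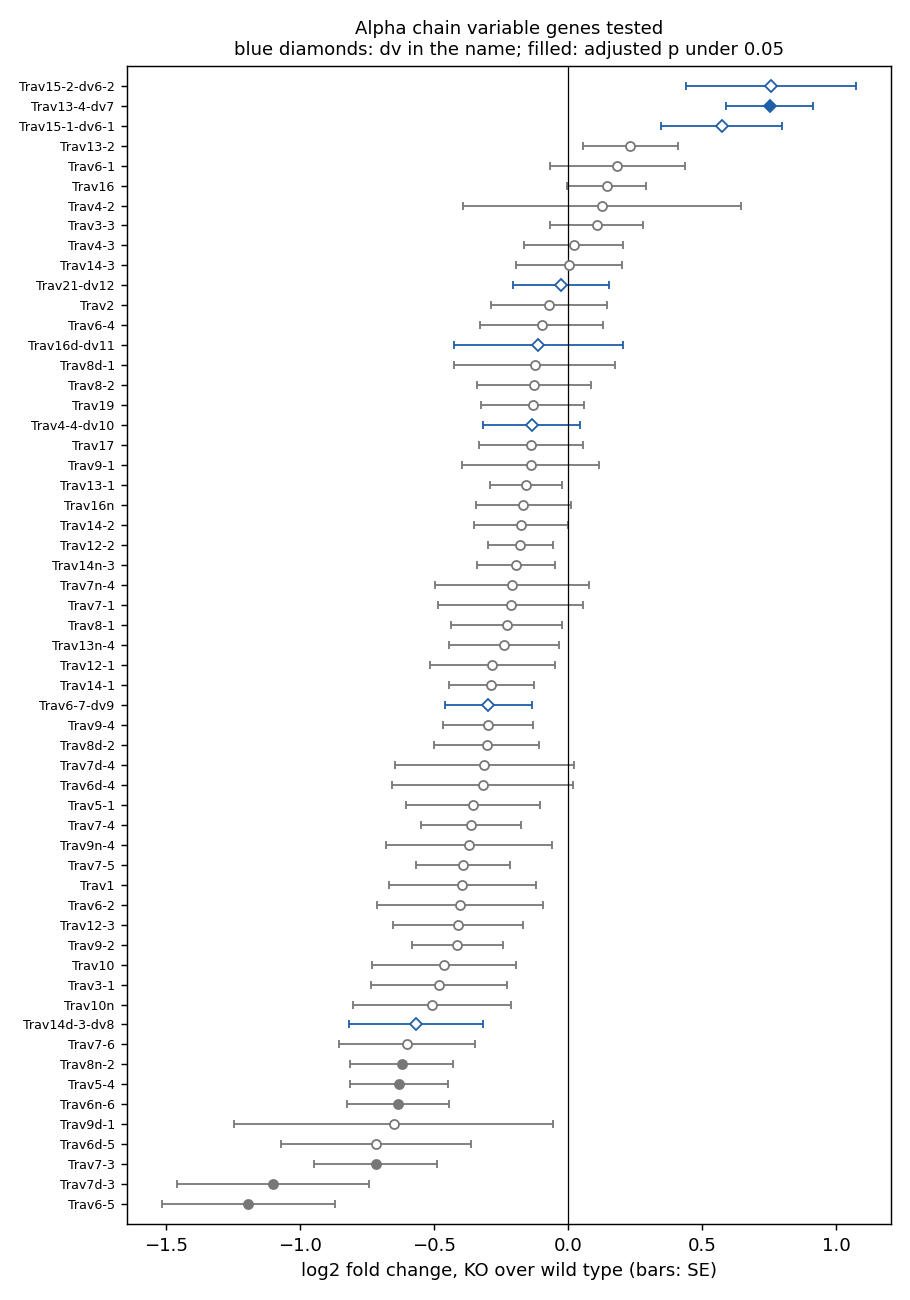
Log2 fold change of KO over wild type for the 57 tested Trav segments, sorted by value, with bars of 1 SE. Filled points passed the test and diamonds are dv-named. Values lie mostly below 0, with Trav13-4-dv7 the 1 called above it.

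The sum over all Trav rows was 81.7, 77.8 and 77.1 CPM in wild type and 69.9, 65.9 and 68.4 CPM in KO. Means were 78.9 ± 2.53 and 68.1 ± 1.98 CPM (SD, n = 3 each), 13.7% lower in KO, a log2 ratio of -0.21. The groups did not overlap. Trac, the alpha constant gene, fell alongside, from 494 ± 17.9 to 415 ± 6.81 CPM, with a log2 fold change of -0.25 ± 0.04 (SE) and an adjusted p of 0.000883 by edgeR's quasi-likelihood test with Benjamini-Hochberg adjustment. Per 100 Trac counts, Trav gave 16.0 ± 0.386 in wild type and 16.4 ± 0.237 in KO, so the sum of V segments and the constant gene moved by similar amounts. With library totals alone as the scaling the Trav log2 ratio was -0.14.

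With the Trav total as the library size, the median log2 fold change of Trav segments was -0.03, with 32 below 0 and 25 above, and that of all genes shifted to 0.22. This scaling makes the Trav sum equal in all libraries, so Trav values centred near 0 follow largely from it. A segment that held its CPM while the Trav sum fell is raised by it. Under this scaling 3 of 57 Trav segments rose and 2 fell, where 46.4% of all genes were called higher and 11.5% lower. The 3 that rose were Trav13-4-dv7, Trav15-1-dv6-1 and Trav15-2-dv6-2, all dv-named, and the 2 that fell were Trav6-5 and Trav7d-3. The effective number of segments, over rows as counted, was 52.7 ± 0.855 in wild type and 51.6 ± 0.948 in KO, with overlapping ranges. The 5 most used segments of each library held 18.9% ± 0.476 and 20.1% ± 0.639.

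Trav13-4-dv7 (chromosome 14, 53757356 to 53757921), whose V segment can serve alpha or delta chains, was the 1 Trav segment that rose. In replicate order its CPM was 1.28, 1.41 and 1.24 for wild type and 1.96, 2.26 and 2.42 for KO. All KO libraries lay above all wild-type libraries, on raw counts of 30, 42 and 39 against 70, 70 and 81. On the log2 scale it rose by 0.75 ± 0.16 (SE), which is 68.5%, with an adjusted p of 0.00315 by edgeR's quasi-likelihood test with Benjamini-Hochberg adjustment. As a share of Trav counts it rose from 1.66% ± 0.133 to 3.25% ± 0.394 (SD, n = 3 each), a log2 fold change of 0.96 ± 0.17 with an adjusted p of 0.000614 by the same edgeR test. In single libraries the 95% Wilson intervals of this share reached at most 2.44% in wild type and started at 2.23% or above in KO, for counting error only. Of its 50-base windows 22.9% were unique, with Trav13d-4 among the transcripts that shared the rest.

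The other dv-named segments did not pass in CPM. Trav15-1-dv6-1 was read at 0.596, 0.906 and 1.11 CPM in wild type and 1.23, 1.29 and 1.46 CPM in KO, a log2 fold change of 0.57 ± 0.23 (adjusted p 0.0550, edgeR). Trav15-2-dv6-2 was read at 0.255, 0.369 and 0.349 CPM in wild type and 0.392, 0.645 and 0.657 CPM in KO, a log2 fold change of 0.76 ± 0.32 (adjusted p 0.0671, edgeR). Both had KO libraries wholly above wild-type libraries, at 6 to 49 counts per library. As shares of Trav counts both rose, by 0.78 ± 0.24 (adjusted p 0.0142) and 0.96 ± 0.33 (adjusted p 0.0259) on the log2 scale by edgeR with the Trav total as the library size. The log2 fold changes of the other 5 in CPM were -0.03 for Trav21-dv12, -0.11 for Trav16d-dv11, -0.14 for Trav4-4-dv10, -0.30 for Trav6-7-dv9 and -0.57 for Trav14d-3-dv8. The dv-named group was therefore mixed, with 1 of 8 higher, 0 lower, 3 of 8 above 0 and a median of -0.07. The 49 tested segments without dv had 0 higher, 6 lower and a median of -0.29. Over all genes tested 26.7% were higher and 26.1% lower, so the called shares of both sets lay below that background. That background includes genes with far higher counts, and tested Trav segments had a median SE of 0.22. The lower called share is therefore not read as a trait of either set, and the difference between the 2 sets was not tested. For the 0 higher without dv, edgeR also gave 0 at an unadjusted p under 0.05, and DESeq2 and limma-voom gave 0. For the 0 lower with dv, edgeR gave 1 at an unadjusted p under 0.05, Trav14d-3-dv8, and DESeq2 and limma-voom gave 0. Trav14d-3-dv8 was called lower by edgeR with no filter (adjusted p 0.0402) and without wild-type replicate 2 (adjusted p 0.0102).

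Together, dv-named segments held 12.6%, 11.6% and 14.1% of Trav counts in wild type and 14.6%, 15.8% and 16.0% in KO. In CPM they summed to 10.1 ± 0.949 and 10.5 ± 0.381, whereas Trav without dv summed to 68.8 ± 2.63 and 57.6 ± 2.08 (SD, n = 3 each). The larger share went with a lower CPM of the other Trav segments and a dv-named sum whose groups overlapped.

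Genes of gamma-delta T cells were mostly higher in KO, whereas the dv-named segments went both ways. Trdc, the delta constant gene, rose from 18.4 ± 0.940 to 45.2 ± 2.44 CPM (SD, n = 3 each), a log2 fold change of 1.30 ± 0.07 (SE) with an adjusted p of 5.01e-06 by edgeR's quasi-likelihood test with Benjamini-Hochberg adjustment. Delta-only V segments (Trdv) summed to 2.66 ± 0.259 and 5.21 ± 0.269 CPM. Of 17 gamma-delta markers 16 were in the table, 11 were tested, 9 rose and 0 fell (0 also at an unadjusted p under 0.05 and by DESeq2 or limma-voom), where 26.7% of all genes tested rose and 26.1% fell. Their median log2 fold change was 1.24, and their summed level was 47.9 to 53.4 CPM in wild type against 110 to 130 in KO. The part of gamma-delta transcripts in the dv-named counts was not tested, because counts on a V row do not tell which constant gene the read continued into.

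**Figure D4:**
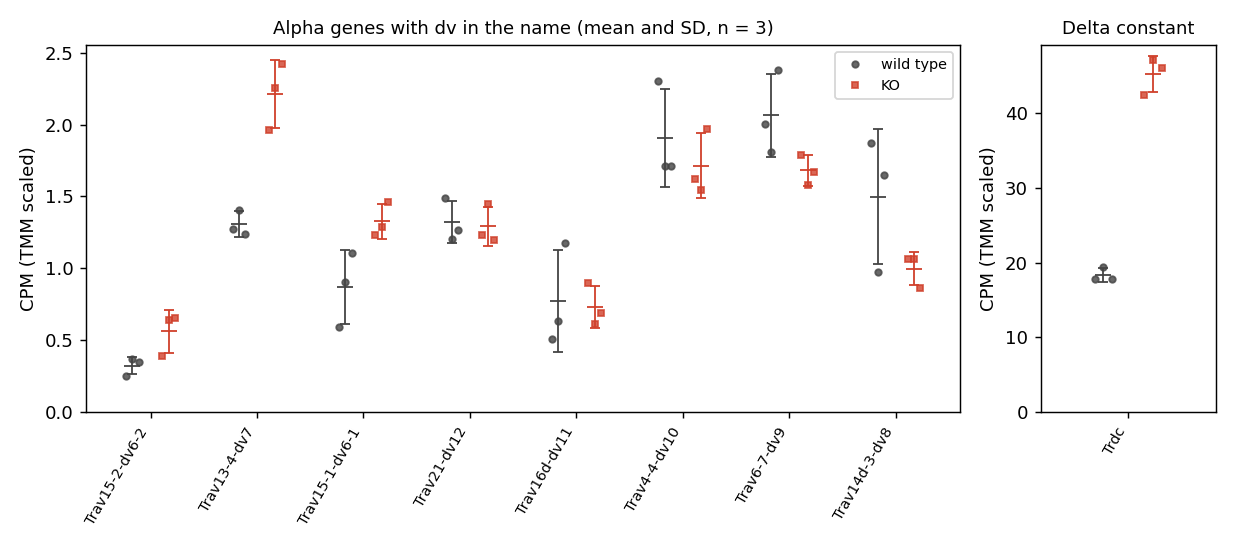
CPM of the 8 dv-named Trav segments (left) and of Trdc (right, on its own axis) by library, circles for wild type and squares for KO, with the mean and SD of 3 libraries. Trav13-4-dv7, Trav15-1-dv6-1 and Trav15-2-dv6-2 have all KO points above all wild-type points, and Trav6-7-dv9 has all of them below.

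The 6 Trav segments that fell had lower counts than the called Trbv segments. Trav5-4 (chromosome 14, 53704007 to 53704514) had CPM of 2.68, 1.91 and 1.90 in wild type and 1.29, 1.39 and 1.46 in KO, with a log2 fold change of -0.63 ± 0.18 and an adjusted p of 0.0145 by edgeR. Trav6n-6 (53132679 to 53133137) held 48, 59 and 53 counts in wild type and 40, 32 and 50 in KO, at means of 1.90 ± 0.193 and 1.22 ± 0.246 CPM, with -0.63 ± 0.19 and an adjusted p of 0.0166. In both, CPM did not overlap between the groups, and wild-type replicate 1 was the highest library. Without KO replicate 1 neither passed (adjusted p 0.0516 and 0.0585), and Trav6n-6 also did not pass without wild-type replicate 2 (0.0506) or KO replicate 2 (0.0676), all by edgeR.

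Trav6-5 (53491115 to 53491622) held 10, 17 and 22 counts in wild type and 10, 9 and 6 in KO, or 0.426 to 0.698 and 0.179 to 0.290 CPM, with a log2 fold change of -1.19 ± 0.32 and an adjusted p of 0.0103 by edgeR. It stayed past the threshold in each fit that left out a library, and as a share of Trav counts (-0.99, adjusted p 0.0254, edgeR). Trav7d-3 (52744249 to 52744840) held 18, 19 and 14 counts against 8, 6 and 14, with -1.10 ± 0.36 and an adjusted p of 0.0250. KO replicate 3 equalled the lowest wild-type library in raw counts and lay below it in CPM, 0.418 against 0.444. The call was lost without wild-type replicate 1 or 2 or KO replicate 1 or 2, with adjusted p of 0.0535, 0.0660, 0.0861 and 0.0899 by edgeR.

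Trav7-3 (53443249 to 53443839) held 18, 25 and 34 counts in wild type and 20, 16 and 19 in KO, with -0.72 ± 0.23 and an adjusted p of 0.0232 by edgeR. It did not pass without wild-type replicate 3 (0.107) or without KO replicate 1, 2 or 3 (0.0534, 0.0742 and 0.0573). Trav8n-2 (53345890 to 53346424) held 34, 65 and 58 counts against 47, 34 and 39, with -0.62 ± 0.19 and an adjusted p of 0.0196. It did not pass without wild-type replicate 2 (0.0881), KO replicate 2 (0.0697) or KO replicate 3 (0.0615). These 6 segments had 27.6% (Trav6-5) to 71.9% (Trav8n-2) unique windows, so near-identical copies may share their reads. By DESeq2, Trav6-5, Trav7d-3, Trav7-3 and Trav8n-2 missed the threshold (adjusted p 0.0603, 0.0718, 0.130 and 0.0608). As shares of Trav counts, Trav5-4, Trav6n-6, Trav7-3 and Trav8n-2 missed it (adjusted p 0.0633, 0.0719, 0.0907 and 0.0943, edgeR).

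Summing each Trav family into 1 row joins copies with the same family number. It does not join genes of other names that share sequence with them. These include C920008G01Rik for Trav7 segments, and Gm30214 and Gm43650 for Trav13 segments. Reads left uncounted because they match several copies, if any, are not recovered by a sum. Of 18 family sums tested, 1 rose and 5 fell, where 53.0% of all features passed in that fit, 26.6% higher and 26.4% lower. The family that rose was Trav15, whose 9 rows include 4 dv-named segments. It held 20, 38 and 46 counts in wild type and 59, 61 and 72 in KO, with a log2 fold change of 0.65 ± 0.21 (SE) and an adjusted p of 0.0233 by edgeR's quasi-likelihood test with Benjamini-Hochberg adjustment. All KO libraries were above all wild-type libraries, and the call was lost without wild-type replicate 1 (adjusted p 0.0502), KO replicate 2 (0.0625) or KO replicate 3 (0.0879), and by DESeq2 (0.0519).

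The families that fell were Trav5 (-0.56 ± 0.16, adjusted p 0.0142), Trav7 (-0.46 ± 0.10, 0.00400), Trav6 (-0.40 ± 0.11, 0.0105), Trav9 (-0.37 ± 0.11, 0.0150) and Trav8 (-0.33 ± 0.10, 0.0222) by the same edgeR test. Trav7 stayed past the threshold in each fit that left out a library. Trav5 was lost without KO replicate 1 (0.0576), Trav6 without KO replicate 2 (0.0521), and Trav9 without wild-type replicate 2 (0.0537), KO replicate 2 (0.0691) or KO replicate 3 (0.0561). Trav8 was lost without wild-type replicate 2 (0.0776), wild-type replicate 3 (0.0544) or KO replicate 2 (0.0972), and with library totals alone as the scaling (0.0802) or by DESeq2 (0.0541). Trav13, which holds Trav13-4-dv7, did not pass as a family, at 0.11 ± 0.09. With the Trav total as the library size, 0 families fell and 2 rose, Trav13 (0.32, adjusted p 0.0176) and Trav15 (0.86, adjusted p 0.00542).

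**Figure D5:**
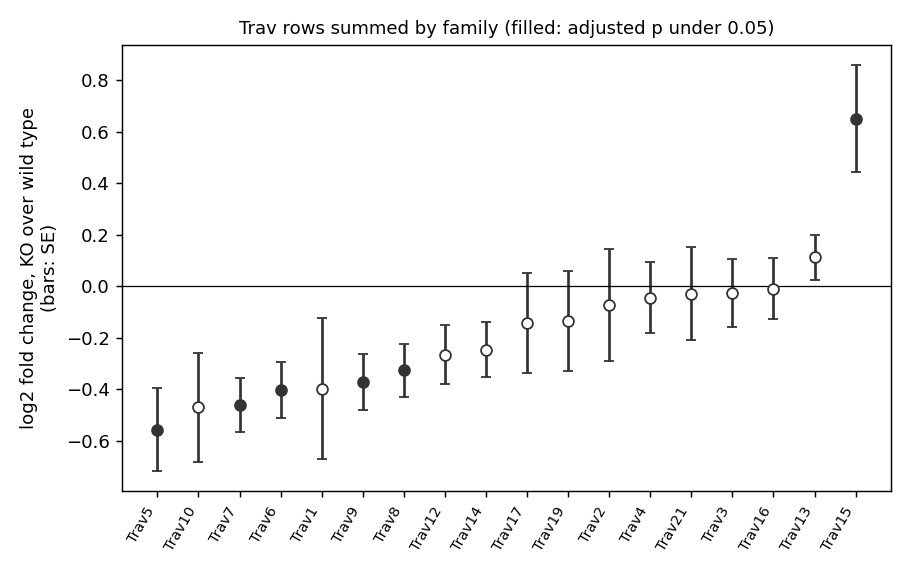
Log2 fold change of KO over wild type for the 18 tested Trav family sums, sorted by value, with bars of 1 SE and filled points for those that passed the test. Trav15 lies highest at 0.65 and Trav5 lowest at -0.56.

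The alpha segments of innate-like T cells were read at low counts or could not be read. Trav1 (chromosome 14, 52427928 to 52428876), the alpha segment of mucosal-associated invariant T cells, held 15, 23 and 21 counts in wild type and 24, 11 and 18 in KO, which overlapped, with a log2 fold change of -0.40 ± 0.27 and an adjusted p of 0.250 by edgeR. Trav11, the alpha segment of most natural killer T cells, is listed at 0 in all libraries. None of its 50-base windows was unique, since Trav11d shares most of them and Trav11n some. Its level could not be read from this table. Trav11n, annotated as a pseudogene, had 78.6% unique windows and held 16 counts, which do not stand in for Trav11. In the natural killer T and mucosal-associated T cell list, 1 of 3 genes tested rose and 0 fell, against 26.7% and 26.1% of all genes. The 1 that rose was Klrb1c, also in the natural killer cell list, at 0.94 ± 0.26 (adjusted p 0.0107, edgeR). Zbtb16 did not pass, at -0.20 ± 0.21.

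Other cell type genes moved beside the V segments, and their counts stand against 52.9% of all genes called, 26.7% higher and 26.1% lower. Of 7 constant and CD3 chain genes, 5 fell and 0 rose (0 also unadjusted and by DESeq2 or limma-voom), among them Cd3e, a signalling chain of the receptor complex, at -0.34 ± 0.04. In both the CD4 and the CD8 lineage list 2 of 3 genes fell and 0 rose (0 also unadjusted and by DESeq2 or limma-voom). Cd4, the co-receptor of helper T cells, fell from 434 ± 7.84 to 337 ± 18.3 CPM, a log2 fold change of -0.36 ± 0.05 (adjusted p 0.000227, edgeR). Cd8a, a co-receptor chain of cytotoxic T cells, did not pass (-0.03 ± 0.04, adjusted p 0.576), and its partner Cd8b1 fell by 0.17 on the log2 scale. Runx3, a transcription factor of the CD8 lineage, fell by 0.42 ± 0.06 (adjusted p 0.000212, edgeR). Of 8 B cell markers, 1 rose and 1 fell, and none was at 0, with a summed level of 551 to 565 CPM in wild type against 482 to 510 in KO. Natural killer cell markers summed to 16.2 to 23.1 and 33.8 to 40.5 CPM, with 3 of 3 tested higher. Most of this sum was Eomes, at 15.1 to 21.0 CPM in wild type and 30.8 to 36.4 in KO. Ncr1 had means of 0.181 and 0.634 CPM. Klra8 was too low to test, at means of 0.277 and 0.243 CPM. Myeloid markers summed to 28.4 to 31.7 and 22.1 to 25.3 CPM, with 1 higher and 2 lower of 3 tested. Most of this sum was Cd68, at 24.6 to 27.7 CPM in wild type and 19.1 to 21.3 in KO. Cd68 and Itgam fell (log2 -0.39 ± 0.07 and -0.44 ± 0.14), and Lyz2 rose (1.36 ± 0.34) from a mean of 0.187 to 0.489 CPM. Csf1r, Adgre1 and Cd14 were too low to test, so the list went both ways and its sum reflects mainly Cd68. The part of these cell types in the V segment results was not tested.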

How the data were processed

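RNA of 6 libraries of activated spleen T cells, 3 wild type and 3 Drp1 KO by the labels, was made into stranded poly(A) libraries per the labels' protocols. The authors deposited raw counts per gene symbol. Tools in the submitters' processing notes, with no roles, are STAR 2.5.2, HTSeq 0.6.1, FastQC, Cufflinks and DESeq2 1.12, with the mm10 genome. Strand setting, annotation release and handling of multiply matching reads: not given in the sources used here. In 27 rows a spreadsheet had turned the symbol into a date. These hold 0.241% of counts and count in the totals, but none is named.

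Total counts were 24738017 to 34730475 per library. KO was compared with wild type by edgeR 4.0.16 in R 4.3.3 with filterByExpr, TMM factors (0.949 to 1.03), the quasi-likelihood F test (4 residual degrees of freedom, genotype alone) and Benjamini-Hochberg adjustment over all 14209 genes tested, called at an adjusted p under 0.05. CPM use these factors. The same fit was made with the Trav or Trbv total as the library size, and with Trav rows summed by family. Segment totals and diversity are values with no test. Positions and sequences come from GENCODE M21 (mm10), matched by symbol. The procedure was also run on simulated data, with the same dispersion for all genes and far fewer changed genes than were called here. That run therefore does not bear on the calls of low-count Trav segments. Alternatives were other scalings, DESeq2 1.42.0, limma-voom (limma 3.58.1), other filters, a replicate block and leaving out each library. Library totals alone, and the alternatives for family sums, were added after seeing the data. Plots were made in Python 3.11.15 with matplotlib 3.10.9.

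The segments and marker lists were chosen with earlier results of these data known. Segments named are the 6 most used per locus by wild-type share, up to 5 called rises and 5 called falls per locus by size, Trav1 and Trav11, and the 2 on each side of the 30-count limit. Trav8n-2, the other dv-named segments, the segments that failed the filter or whose groups did not overlap, the families, Runx3, Cd3e, Dntt, and the J and D segments were named after their values were seen. So were Trav11n, Trbv5, Klrb1c, Zbtb16, Eomes, Ncr1, Klra8, the myeloid genes, and the genes of other names that share sequence with V segments.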

Additional observations from a re-analysis of the deposited data

How the results depend on the processing

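Trav13-4-dv7 kept its call in all 15 settings run (log2 0.68 to 0.96), as did Trbv26 (-0.62 to -0.50). No named segment changed direction past the threshold. Trav segments called higher, 1 by TMM, numbered 2 with upper quartile factors, with no filter and with a filter of 1 CPM in 3 libraries, and 3 with the Trav total as the library size and with library totals alone. Leaving out single libraries gave 1 to 2. Trav segments called lower, 6 by TMM, numbered 2 by DESeq2, 3 with the 1 CPM filter, which tests fewer segments, and 2 with the Trav total, and 2 to 8 without single libraries. Trbv segments called lower numbered 1 with the Trbv total and with library totals alone, and 1 to 2 without single libraries. Trav families called higher numbered 0 by DESeq2, 2 with the Trav total and 0 to 1 without single libraries. Families called lower numbered 0 with the Trav total and 2 to 5 without single libraries. With library totals alone the log2 ratio of the totals was -0.14 for Trav and -0.0095 for Trbv, and 62.0% of calls over all genes were higher, against 50.6% by TMM. With the Trav total the share was 80.1% and with the Trbv total 64.3%. The cause of these changes was not tested, beyond the fewer segments under the 1 CPM filter.

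With the replicate number as a block, 3 Trav segments were called higher and 6 lower, 0 and 2 Trbv segments, and 1 and 8 families. The deviations of same-numbered libraries correlated at 0.281, 0.266 and 0.0112, and those of differently numbered ones at -0.302 to 0.190. Replicates 1 and 2 correlated best with their own number, and replicate 3 did not. As the match did not hold for every library, the numbers were not taken to pair the samples.

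Counts of 2 to 114 per Trav segment and library limit single Trav values to a median SE of 0.22, against 0.09 for Trbv. Shared sequence between Trav copies is a further limit, since reads of identical stretches cannot be told apart.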

Other observations

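The joining (J) and diversity (D) segments of the same loci were also read. Of 60 Traj rows, 23 were tested, 0 rose and 3 fell by edgeR's quasi-likelihood test with Benjamini-Hochberg adjustment, where 26.7% of all genes tested rose and 26.1% fell. The called share of Traj segments lay below that background, which includes genes with far higher counts. The 3 that fell were Traj40 (-1.22 ± 0.34, adjusted p 0.0112), Traj26 (-0.82 ± 0.28, adjusted p 0.0311) and Traj9 (-0.73 ± 0.27, adjusted p 0.0437). Their counts were low. Traj40 held 9, 13 and 18 in wild type and 9, 5 and 6 in KO. Traj26 held 13, 17 and 15 against 10, 8 and 12, and Traj9 15, 22 and 18 against 17, 12 and 10. The sum of Traj rows was 17.2 ± 0.882 CPM in wild type against 15.2 ± 1.35 in KO (SD, n = 3 each). DESeq2 called 0 Traj segments in either direction, and limma-voom 0 higher and 3 lower. At an unadjusted p under 0.05 edgeR gave 0 higher. None of the 7 Trbj1 or 7 Trbj2 segments passed by edgeR, DESeq2 or limma-voom (1 Trbj1 segment lower at an unadjusted p under 0.05, otherwise 0), and their sums were 32.9 ± 1.35 and 30.2 ± 1.75 CPM for Trbj1 and 23.0 ± 0.928 and 22.1 ± 1.51 CPM for Trbj2. Trbd2, the D segment of the second beta cluster, fell from 2.89 ± 0.277 to 2.02 ± 0.232 CPM (log2 -0.51 ± 0.15, adjusted p 0.0150, edgeR), and Trbd1 did not pass (0.16 ± 0.15). Trbd2 held 75, 79 and 89 counts in wild type and 69, 71 and 62 in KO. The part of joined receptor transcripts in the J and D counts was not tested.

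Rag1 and Rag2, which encode the enzyme that cuts V, D and J segments, are listed at 0 in all libraries. Dntt, which encodes terminal transferase, the enzyme that adds bases at the joints, held 668, 736 and 746 counts in wild type and 357, 254 and 306 in KO, at means of 25.6 ± 2.51 and 9.11 ± 0.903 CPM (SD, n = 3 each). The groups did not overlap. Dntt fell by 1.48 ± 0.10 (SE) on the log2 scale with an adjusted p of 1.41e-05 by edgeR.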
